A study of Drosophila melanogaster with 6 samples.

Results

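The proteasome is the large protease that degrades ubiquitin-tagged proteins, and its subunit genes were followed here in the heads of male Drosophila melanogaster kept alone or in company. The subunit genes were taken as the probe sets with exactly 1 annotated gene whose symbol begins with Prosalpha, Prosbeta, Rpn or Rpt followed by a digit. This gave 40 probe sets for 40 genes, of 11982 genes with such a probe set and 18769 probe sets in all, controls left out. Of these genes, 26 encode main subunits, 12 of the core particle and 14 of the regulatory particle, and 14 are paralogs marked T or R in the symbol. A further 1 probe set was annotated with several genes, all with symbols of the family, and is not used. Prosalpha1, Prosbeta1, Rpt1, Rpt6, Rpn9, Rpn10 and Rpn15 were not analysed here, so the main set covers 26 of 33 subunits on the list.

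Head RNA was measured on 1-colour Affymetrix arrays. Single-housed males lived at 1 fly per vial, and group-housed males at 10 flies per vial, in both cases for 6 days after eclosion. Each housing group had 3 arrays, described in the series as biological replicates, and each array carried RNA of 20 pooled heads. No strain, genotype or transgene is given in the labels, and both groups were collected in the same hour of the late afternoon. Its title calls males kept alone more aggressive than males kept in groups.

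The core particle is a barrel of alpha subunits, which gate its entrance, and beta subunits, some of which cut peptide bonds. The regulatory particle caps the barrel. Its base holds the Rpt ATPases, which unfold substrates and thread them into the core, and its lid removes the ubiquitin chain. The roles given below for single subunits were worked out mainly in yeast and mammalian proteasomes. In many eukaryotes the subunit genes are controlled together, and in flies several subunits have a second gene copy that is used mainly in the testis.

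All levels below are log2(intensity + 16) after quantile normalization, and differences on that scale are taken as the single-housed mean minus the group-housed mean. A level of 1 probe set was not set against that of another as a measure of RNA amount. Standard errors (SE), 95% intervals and p-values are from limma, fitted over all 13138 probe sets that passed a filter on low values, with Benjamini-Hochberg adjustment over all of them. An exact permutation test of 3 arrays against 3 cannot go below p = 0.1. In RNA from whole heads, fewer cells of a type and less RNA per cell cannot be told apart.

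No proteasome gene passed adjusted p 0.05 in limma (0 of 31 tested), where 0.0152% of all probe sets did. Main subunit values nevertheless lay mostly on one side. Of the 26 main subunits, 25 had a difference above 0, against 45.4% of all probe sets tested. Their median difference was 0.110, and the median over all probe sets tested was -0.017. At unadjusted p 0.05, 6 main subunits were higher in single-housed heads and 0 lower, where 8.24% of all probe sets reached it, 4.57% higher and 3.67% lower. For 10 main subunits all single-housed arrays lay above all group-housed arrays, which held for 6.23% of all probe sets. Subunits of 1 complex measured on the same arrays are not independent of each other, so these counts are descriptions. Among the 1582 probe sets tested whose mean level lay within the range of the main subunits (8.62 to 9.99), 42.7% were above 0, with a median of -0.027. In that range 129 probe sets (8.15%) reached unadjusted p 0.05 in limma with a difference above 0, and 93 with a difference below 0. For 145 of them the single-housed arrays lay wholly above, so both shares were larger than over all probe sets.

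A single array carried much of this. Group-housed replicate 3 had the lowest value of all 6 arrays for 25 of the 26 main subunits, where it was lowest for 20.2% of all probe sets tested and for 25.7% of those in the same range of levels. It was also the highest array for 24.1% of all probe sets, but for none of the main subunits (0 of 26). The median main subunit lay 0.197 below its mean over the 6 arrays on that array, while the medians on the other 5 arrays lay between 0.013 and 0.079 above it. Without group-housed replicate 3, 18 of the 26 main subunits were above 0, against 46.4% of all probe sets, and their median difference was 0.021. The number higher at unadjusted p 0.05 was then 2 of 26, or 7.69%. The share was 3.69% of all probe sets and 6.01% of those in the same range of levels. It was also 2 without single-housed replicate 1 or 2, where 485 and 336 of the 13138 probe sets were higher. The plot of all main subunits by array shows group-housed replicate 3 as the lowest point of nearly every column.

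**Figure D1:**
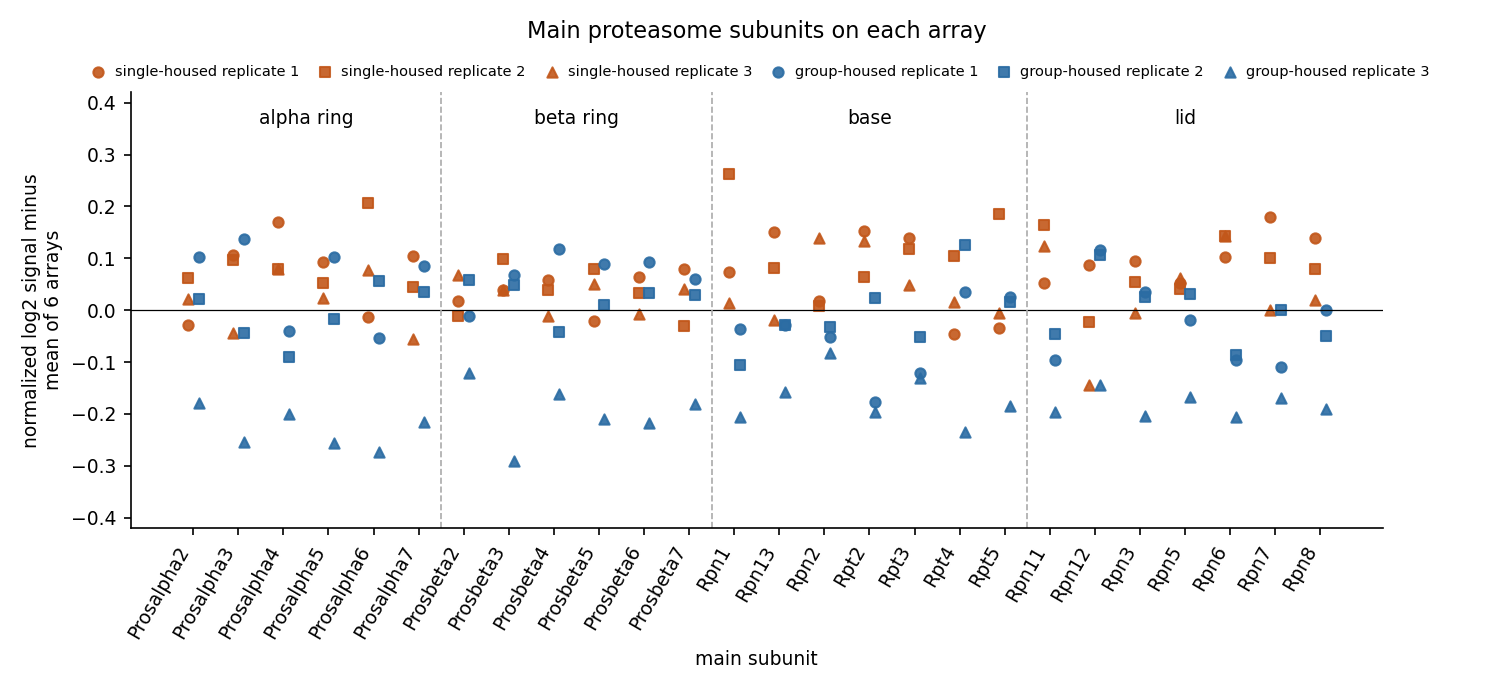
Normalized log2 signal of each of the 26 main subunits minus its mean over the 6 arrays (y axis), by gene and subcomplex (x axis). Each point is 1 array, orange for single-housed and blue for group-housed heads, with the shape giving the replicate number. Group-housed replicate 3 is the lowest array for 25 of the 26 genes, the exception being Rpn12.

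Signals of cell type marker genes also varied between these arrays. None of the markers tested passed adjusted p 0.05 in limma (0 in each list), where 0.0152% of all probe sets did. The signals of 10 head fat body genes summed to between 28900 and 30800 in single-housed heads and between 17000 and 25100 in group-housed heads, lowest on group-housed replicate 3. The larval serum protein gene Lsp2, at 11.64, 12.57 and 9.25 in group-housed heads, set which group-housed array was lowest. Without it, a choice made after its values were seen, the sums were 22100, 23200 and 23700 in single-housed heads and 15600, 19100 and 16400 in group-housed heads, lowest on group-housed replicate 1. Of the 9 tested, 6 were above 0, and Fbp1 did not pass the filter. The sum of 11 neuron markers was 9120 to 10000 in single-housed heads and 9590 to 11900 in group-housed heads, highest on group-housed replicate 3, with 3 of 11 above 0. For glial markers 6 of 6 genes were above 0, with sums of 5670 to 6040 in single-housed heads and 5100 to 5680 in group-housed heads. Sums of 5 photoreceptor genes were 23400 to 25900 in single-housed heads and 25300 to 25800 in group-housed heads (0 of 5 above 0). The photoreceptor gene Arr2 had the same normalized value, 13.3, on every array except single-housed replicate 3 (13.23). Its mean of 13.29 was the highest of all probe sets tested, and quantile normalization gives the top rank of each array the same value. The deposited intensities of Arr2 in group-housed heads were 9801, 9181 and 10630. Sums of 7 muscle genes were 4470 to 5470 in single-housed heads and 5430 to 5790 in group-housed heads (2 of 7 above 0). For 8 hemocyte genes they were 2070 to 2290 in single-housed heads and 1880 to 2240 in group-housed heads (7 of 8 above 0). Of these lists only the fat body sums were apart between the groups. The part of cell composition in the proteasome values was not tested.

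The alpha ring, whose subunits form the gated entrance of the core, had 6 of 6 genes above 0 with all arrays in, and a median difference of 0.111. Prosalpha4 (1641485_at) was at 8.81, 8.72 and 8.72 in single-housed heads, against 8.60, 8.55 and 8.44 in group-housed heads. It was the only core subunit whose groups did not overlap. Its difference was 0.22 (SE 0.082, 95% interval 0.03 to 0.40, adjusted p 0.561), a 1.16-fold higher signal, and 0.17 without group-housed replicate 3. Prosalpha6 was at 8.88, 9.10 and 8.97 in single-housed heads and at 8.84, 8.95 and 8.62 in group-housed heads, which overlap. Its difference was 0.18 (SE 0.10, adjusted p 0.696), or 0.09 without the lowest array.

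For the other alpha subunits 1 array set most of the difference. Prosalpha5 was at 9.91, 9.87 and 9.84 in single-housed heads and at 9.92, 9.80 and 9.56 in group-housed heads, so that group-housed replicate 1 was the highest of all and replicate 3 the lowest. Prosalpha3 followed the same order, with 9.56, 9.55 and 9.41 in single-housed heads and 9.59, 9.41 and 9.20 in group-housed heads. Both had a difference of 0.11 (SE 0.097 for Prosalpha5 and 0.11 for Prosalpha3), which became 0.01 without group-housed replicate 3. Prosalpha7 was at 0.07 and Prosalpha2 at 0.03, and without that array they were at -0.02 and -0.04.

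The beta ring holds the protease sites and had the smallest median difference of the subcomplexes, 0.062, with values from 0.05 to 0.12. All 6 of its genes were above 0, and their housing groups overlapped in every case. Prosbeta3, a non-catalytic beta subunit, was at 10.03, 10.09 and 10.03 in single-housed heads and at 10.06, 10.04 and 9.70 in group-housed heads. Only group-housed replicate 3 stood below the rest. The difference was 0.12 (SE 0.10, 95% interval -0.12 to 0.35, adjusted p 0.796) with all arrays, and 0.00 without that array.

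Prosbeta5, the subunit with chymotrypsin-like activity, was at 9.92, 10.02 and 9.99 in single-housed heads, against 10.03, 9.95 and 9.73 in group-housed heads, and Prosbeta2, with trypsin-like activity, was at 9.97, 9.94 and 10.02 in single-housed heads, against 9.94, 10.01 and 9.83 in group-housed heads. Both pairs of groups overlap. Their differences were 0.07 (SE 0.090, 95% interval -0.13 to 0.28) for Prosbeta5 and 0.05 (SE 0.073, 95% interval -0.12 to 0.22) for Prosbeta2. Prosbeta7 was at 10.03, 9.92 and 9.99 in single-housed heads and 10.01, 9.98 and 9.77 in group-housed heads, and Prosbeta4 at 9.75, 9.73 and 9.68 in single-housed heads and 9.81, 9.65 and 9.53 in group-housed heads. Prosbeta4, Prosbeta6 and Prosbeta7 each had a difference of 0.06. Without group-housed replicate 3 the beta ring had a median of -0.010, with values from -0.03 to 0.00.

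In the base of the regulatory particle 7 of 7 genes were above 0, with a median of 0.140. For 5 of them all single-housed arrays lay above all group-housed arrays. This held for 6.23% of all probe sets and for 145 of the 1582 in the same range of levels. Rpt2 (1630788_at), an ATPase that helps to open the gate of the core, was at 8.86, 8.77 and 8.84 in single-housed heads, against 8.53, 8.73 and 8.51 in group-housed heads. Its single-housed arrays all lay above its group-housed arrays, though group-housed replicate 2 came close. The difference was 0.24 (SE 0.088, 95% interval 0.04 to 0.43, adjusted p 0.561), a 1.18-fold higher signal. Rpt3 (1637341_at), another of the ATPases, was at 8.76, 8.74 and 8.67 in single-housed heads, against 8.50, 8.57 and 8.49 in group-housed heads. Its groups did not overlap, with a gap about as large as the range within each group. The difference of 0.20 (SE 0.076, 95% interval 0.03 to 0.38, adjusted p 0.561) was 0.19 without group-housed replicate 3.

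Rpn1 (1637349_at), a scaffold that docks ubiquitin-carrying shuttle proteins, was at 8.77, 8.96 and 8.71 in single-housed heads, against 8.66, 8.59 and 8.49 in group-housed heads. These groups are close but apart, with a difference of 0.23 (SE 0.094, adjusted p 0.594), or 0.18 without the lowest array. The ubiquitin receptor Rpn13 was at 9.11, 9.04 and 8.94 in single-housed heads, against 8.93, 8.93 and 8.80 in group-housed heads. There the lowest single-housed and the highest group-housed arrays almost met, and the difference was 0.14 (SE 0.082). Rpn2, the other large scaffold, was at 0.11 (SE 0.075), also with groups apart. The remaining ATPases had overlapping groups. Rpt5 was at 0.09 (SE 0.096) and Rpt4 at 0.05 (SE 0.11), and without group-housed replicate 3 they were at 0.03 and -0.05.

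In the lid, which strips ubiquitin from the substrate, 6 of 7 genes were above 0 and the median was 0.163. Rpn6 (1628466_s_at), which clamps the lid to the core, had the smallest p of the 31 genes tested. The deposited intensities of Rpn6 were 753.9, 742.6 and 622.5 in single-housed heads, against 557.2, 490.3 and 519.2 in group-housed heads. After normalization it was at 9.38, 9.42 and 9.42 in single-housed heads, against 9.18, 9.19 and 9.07 in group-housed heads, so the groups were apart on both scales. The difference was 0.26 (SE 0.072, 95% interval 0.09 to 0.42, unadjusted p 0.00642, adjusted p 0.441), a 1.20-fold higher signal with an interval of 1.07 to 1.34. It was 0.22 without group-housed replicate 3.

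Rpn11 (1628531_at), the metalloprotease that removes ubiquitin chains, was at 9.20, 9.31 and 9.27 in single-housed heads, against 9.05, 9.10 and 8.95 in group-housed heads. The groups did not overlap, and the difference was 0.23 (SE 0.078, adjusted p 0.505), or 0.19 without the lowest array. Rpn8, the partner of Rpn11, was at 9.08, 9.02 and 8.96 in single-housed heads, against 8.94, 8.89 and 8.75 in group-housed heads, which are close but apart, with a difference of 0.16 (SE 0.082). Rpn7, a structural lid subunit, was at 8.85, 8.77 and 8.67 in single-housed heads and 8.56, 8.67 and 8.50 in group-housed heads, where single-housed replicate 3 and group-housed replicate 2 met. Its difference was 0.18 (SE 0.087, adjusted p 0.629).

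The structural subunits Rpn5 and Rpn3 were at 0.10 (SE 0.075) and 0.09 (SE 0.089), with groups apart for Rpn5 alone. Without group-housed replicate 3 they were at 0.05 and 0.02. Rpn12 stood out as the only main subunit below 0. It was at 9.04, 8.93 and 8.81 in single-housed heads and at 9.07, 9.06 and 8.81 in group-housed heads, low on replicate 3 of both groups. Its difference of -0.05 (SE 0.10, 95% interval -0.28 to 0.18, adjusted p 0.930) was -0.14 without group-housed replicate 3 and 0.09 with the deposited scaling. It was the 1 main subunit for which single-housed replicate 3 was the lowest array.

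**Figure D2:**
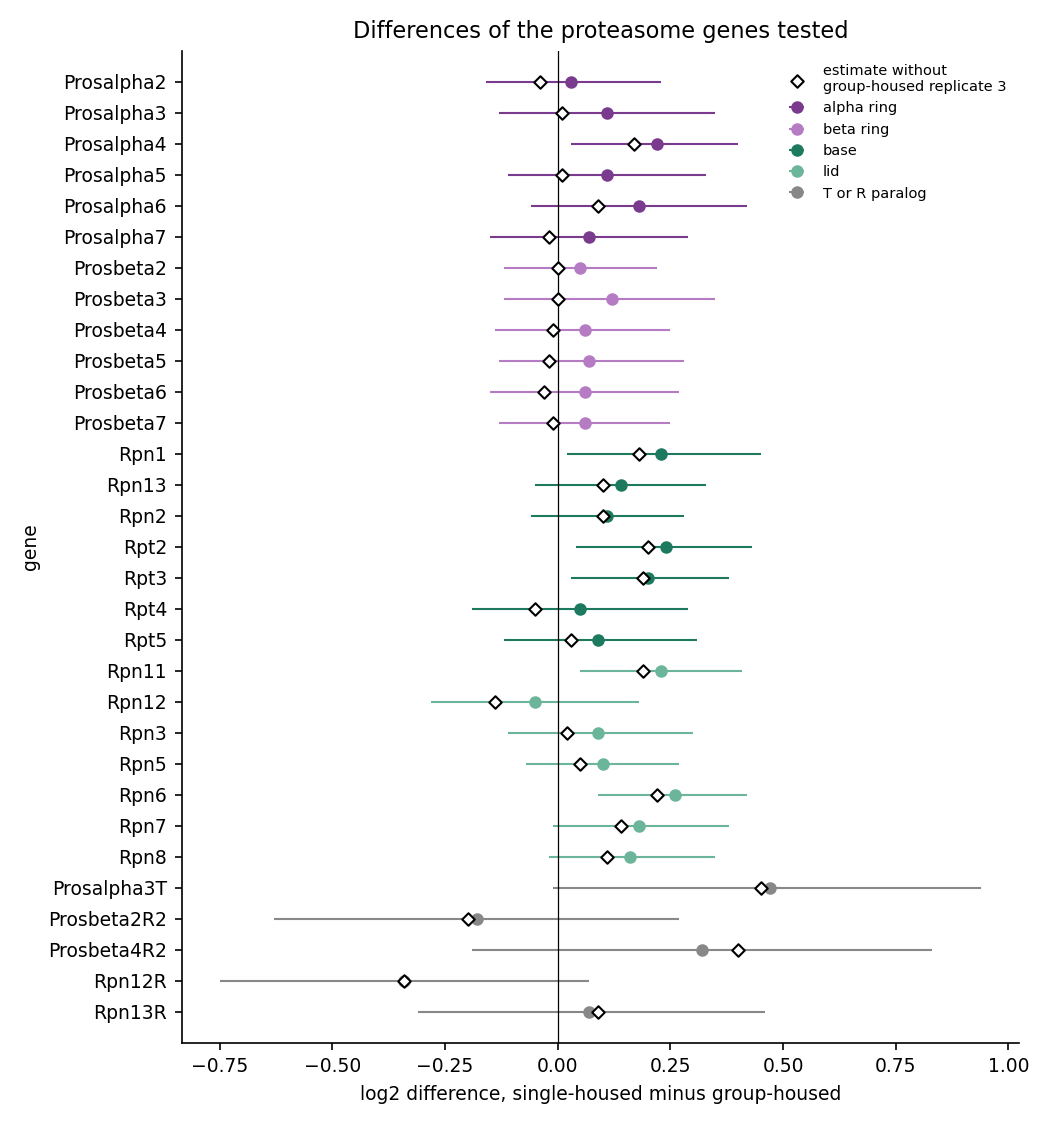
Log2 difference, single-housed minus group-housed (x axis), of the 31 proteasome genes tested (y axis). Filled points with bars are limma estimates with 95% intervals over all 6 arrays, coloured by subcomplex, and open diamonds are estimates without group-housed replicate 3. Without that array the beta ring genes lie at 0.00 or just below it, while Rpn6, Rpt2, Rpt3 and Rpn11 stay between 0.19 and 0.22.

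The medians of the core and the regulatory particle moved unequally when group-housed replicate 3 was left out. With all arrays, the median difference was 0.151 over the 14 regulatory subunits and 0.069 over the 12 core subunits. At unadjusted p 0.05, 5 regulatory subunits and 1 core subunit were higher in single-housed heads, against 4.57% of all probe sets. The share was 8.15% of those in the same range of levels. The groups did not overlap for 9 regulatory subunits and 1 core subunit, against 6.23% of all probe sets. Among the 1582 in the same range of levels, 145 had all single-housed arrays above. The 5 regulatory subunits became 2 without group-housed replicate 3 or single-housed replicate 1 or 2, and 3 when group-housed replicate 1 was left out. Of all 13138 probe sets, 485 were higher at that p without group-housed replicate 3, 485 without single-housed replicate 1 and 336 without single-housed replicate 2. Without group-housed replicate 1 the count was 558. The regulatory median without group-housed replicate 3 was 0.105 with 12 of 14 above 0, while the core median was -0.004 with 6 of 12 above 0. Without group-housed replicate 1 the core median was 0.134. The distance between the regulatory and core medians was 0.082 with all arrays. It stayed above 0 in 14 of 14 alternatives, from 0.035 without group-housed replicate 1 to 0.109 without group-housed replicate 3. The filter and block alternatives leave it at 0.082 by construction, and all alternatives share most of their arrays. Most core subunits also had higher mean levels than most regulatory subunits. The core subunits of lowest level, Prosalpha4 (mean 8.64) and Prosalpha6 (8.89), had the largest core differences, 0.22 and 0.18. Rpn5, the regulatory subunit of highest level (9.90), was at 0.10, but Rpt4 (8.96) and Rpn12 (8.95) were at 0.05 and -0.05. The part of signal level in the distance between the particles was not tested.

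Array by array the separation of the particles was less even. The median deviation of regulatory subunits minus that of core subunits was 0.027, 0.035 and -0.013 on the single-housed arrays 1, 2 and 3, against -0.119, -0.039 and 0.026 on the group-housed arrays. The value of group-housed replicate 3 fell among those of the single-housed arrays, so the groups overlap in this measure. The particles lay farthest apart on group-housed replicate 1, where the core lay 0.089 above its mean over the arrays and the regulatory particle 0.030 below (-0.030). On group-housed replicate 3 the particles were low together, the core at -0.214 and the regulatory particle at -0.188. The difference between the particles was not tested.

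**Figure D3:**
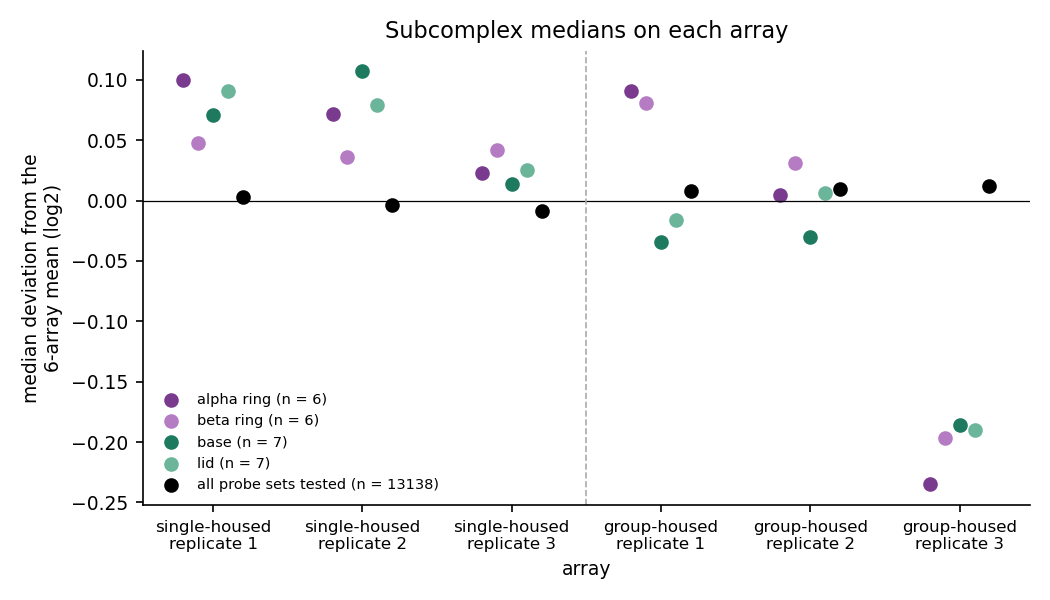
Median deviation of the subunits of each subcomplex from their 6-array means, on the log2 scale (y axis), on each array (x axis), with the median of all probe sets tested in black. The subcomplexes lie above 0 on all single-housed arrays. All of them lie between -0.235 and -0.186 on group-housed replicate 3, and on group-housed replicate 1 the alpha and beta rings lie above 0 and the base and lid below it.

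The spread within groups was larger in the core than in the regulatory particle. The residual SD of the main subunits had a median of 0.102, with 0.119 in the core and 0.085 in the regulatory particle, against 0.156 over all probe sets tested and 0.113 over those in the same range of levels. The lowest was 0.048 for Rpt3 and the highest 0.149 for Prosalpha3. In group-housed heads the SD of Prosbeta3 was 0.21, against 0.035 in single-housed heads. The SD was smaller in single-housed than in group-housed heads for 21 of the 26 main subunits, all 12 core subunits among them, against 58.3% of all probe sets tested and 69.2% of those in the same range of levels. Group-housed replicate 3, the lowest array for 25 of the 26, enters the group-housed SD.

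The scale of the arrays also bore on the size of these differences. With the deposited scaling the median over all probe sets was 0.099, a shift of 0.116, and the main subunits stood at a median of 0.282 with 26 of 26 above 0, which is 0.183 above all probe sets. With that scaling 73.4% of all probe sets were above 0, and 85.2% of those in the same range of levels. With median centring the main subunits stood at 0.195, with 26 of 26 above 0. The share was 53.2% of all probe sets and 62.8% of those in the same range of levels. That median is also 0.183 above all probe sets, against 0.128 after quantile normalization. Probe sets in the same range of levels had a median of 0.129 with the deposited scaling, 0.042 with median centring and -0.027 after quantile normalization. No proteasome gene passed adjusted p 0.05 with either scaling (0 of 31 in limma), where 78 of all probe sets did with the deposited scaling and 11 with median centring. At unadjusted p 0.05, 7 of 31 proteasome genes (22.6%) were higher with the deposited scaling. The share was 7.64% of all probe sets and 13.3% of those in the same range of levels. With median centring 2 of 31 (6.45%) were higher, against 4.22% of all probe sets and 7.27% of those in the same range of levels.

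The paralogs marked T or R lay near the filter on low values or below it. Most of them are known from the fly testis, which is absent from heads. All 26 main subunits passed this filter, whose cutoff was a mean of 4.69, whereas 5 of the 14 paralogs passed it and 9 did not. Every paralog, tested or not, had a mean between 4.07 and 5.17. Prosbeta5R2, a copy of the chymotrypsin-like subunit that did not pass, had deposited intensities of 0.625, 0.552 and 0.902 in single-housed heads and 0.803, 0.539 and 1.49 in group-housed heads.

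At such intensities the arrays of 1 group scattered widely. Prosalpha3T was at 5.02, 4.91 and 5.22 in single-housed heads and at 4.28, 4.92 and 4.55 in group-housed heads, where only group-housed replicate 2 reached the other group. Its difference was 0.47 (SE 0.21, 95% interval -0.01 to 0.94, adjusted p 0.611), and among the alternatives it was smallest at 0.17 and largest at 1.14. Rpn12R was at 4.50, 4.99 and 4.94 in single-housed heads, against 5.22, 5.07 and 5.16 in group-housed heads, apart in the other direction. Its difference was -0.34 (SE 0.18, adjusted p 0.668), or -0.18 without single-housed replicate 1, and group-housed arrays lay wholly above for 7.95% of all probe sets.

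Prosbeta4R2 was at 4.93, 4.83 and 4.89 in single-housed heads and at 4.10, 4.84 and 4.74 in group-housed heads, where replicate 1 alone was low. Prosbeta2R2 was at 4.67, 4.41 and 4.97 in single-housed heads, against 4.77, 5.01 and 4.82 in group-housed heads, which overlap. The differences were 0.32 (SE 0.22) for Prosbeta4R2, -0.18 (SE 0.20) for Prosbeta2R2 and 0.07 (SE 0.17) for Rpn13R. That of Prosbeta4R2 was 0.09 without group-housed replicate 1, and it was 1.045 with a pseudocount of 1 and 0.107 with a pseudocount of 64. Prosbeta2R2 moved to -0.04 when single-housed replicate 2 was left out and to -0.33 when single-housed replicate 3 was, and Rpn13R ran from -0.068 to 0.203 with 1 array left out. In the gene table Prosbeta4R1 and Prosbeta4R2 are neighbours with 1 gene between them, and Prosbeta4R1 did not pass the filter. Group-housed replicate 3 was the lowest array for 0 of the 5 tested paralogs, against 20.2% of all probe sets tested. It was the lowest for 3 of the 9 others, which did not pass the filter and so have no like share beside them. So close to background, the order of the arrays cannot show whether the paralogs share the low array of the main subunits.

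Among paralogs that did not pass the filter, Rpt3R was at 4.72, 4.68 and 5.04 in single-housed heads, against 4.68, 4.37 and 4.25 in group-housed heads, and was not tested. The others were Prosalpha4T1, Prosalpha4T2, Prosalpha6T, Prosbeta2R1, Prosbeta4R1, Prosbeta5R1, Prosbeta5R2 and Rpt4R, all with overlapping groups and single values from 4.03 to 4.92. Testis marker genes lay on both sides of the cutoff. Of 22 testis and germline genes 11 did not pass the filter, among them the spermatid gene Mst87F and the meiotic arrest genes can and sa. The testis tubulin gene betaTub85D averaged 5.00 in single-housed heads and 4.96 in group-housed heads. Well above the cutoff were bol, at 6.95 in single-housed heads and 6.83 in group-housed heads, mia, at 6.13 in single-housed heads and 6.17 in group-housed heads, and twe, at 5.75 in single-housed heads and 5.51 in group-housed heads.

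**Figure D4:**
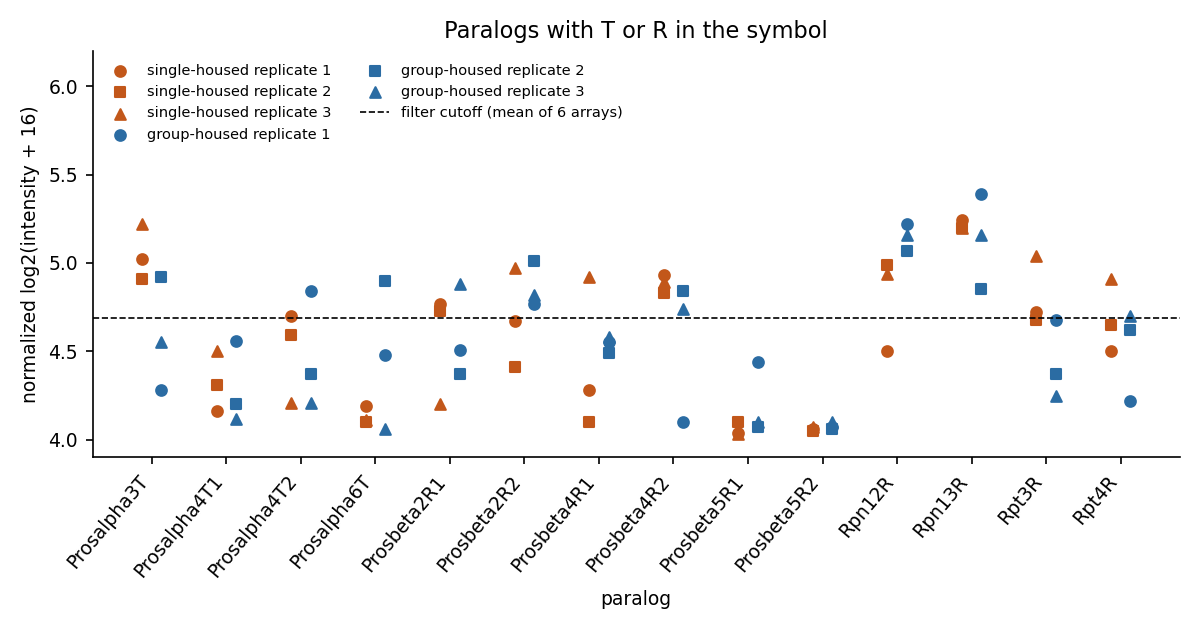
Normalized log2(intensity + 16) (y axis) of the 14 paralogs with T or R in the symbol (x axis). Points are arrays, orange for single-housed and blue for group-housed heads, with the shape giving the replicate number, and the dashed line marks the filter cutoff of 4.69 for the mean of 6 arrays. All means lie between 4.07 and 5.17, and 9 of the 14 genes fall below the cutoff.

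Genes that work with the proteasome lay on both sides of 0. Of 14 cofactors and regulators 10 were above 0, against 45.4% of all probe sets tested, with a median of 0.05. None passed adjusted p 0.05 (0 in limma), and 1 was lower at unadjusted p 0.05, where 3.67% of all probe sets were. That gene was maf-S, the small Maf partner of the Cap'n'collar transcription factor, which was at 10.34, 10.31 and 10.26 in single-housed heads, against 10.68, 10.45 and 10.61 in group-housed heads. Its groups were apart with group-housed arrays higher, which held for 7.95% of all probe sets. The difference was -0.27 (SE 0.077, adjusted p 0.441). The gene cnc encodes that factor, whose relatives activate proteasome genes in mammals. It was at 9.97, 10.25 and 10.10 in single-housed heads and at 9.65, 9.57 and 10.32 in group-housed heads, highest on the array where the subunits were lowest. Its difference was 0.26 (SE 0.18), and its other probe set was at -0.35.

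Pomp, a chaperone of core assembly, was at 0.02 (SE 0.078), and the alternative activator REG at -0.05 (SE 0.077). TER94, the ATPase that extracts ubiquitinated proteins for the proteasome, was at 0.12 (SE 0.075), and its adaptor Ufd1 at 0.14 (SE 0.094). Of 18 genes for ubiquitin and its conjugation 7 were above 0, with a median of -0.025 and 0 passing (limma, 0 also at unadjusted p 0.05). Those with the smallest p were ago, a substrate receptor of a ubiquitin ligase, at -0.19 (SE 0.085), RpL40, a ubiquitin fusion gene, at -0.08 (SE 0.054), vih, a ubiquitin-conjugating enzyme, at 0.15 (SE 0.098), and the cullin gene Cul4 at -0.11 (SE 0.078).

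The COP9 signalosome is a complex built much like the proteasome lid, and 4 of its 9 genes were above 0 with a median of -0.005. Its isopeptidase CSN5, a relative of Rpn11, was at 7.35, 7.37 and 7.37 in single-housed heads, against 7.28, 7.28 and 7.16 in group-housed heads. The groups were apart, as for 6.23% of all probe sets in that direction, with a difference of 0.13 (SE 0.087, adjusted p 0.735). CSN6, the relative of Rpn8, was at 0.18 (SE 0.10), CSN8 at -0.21 (SE 0.16) and CSN3 at -0.05 (SE 0.083). None of the 9 passed adjusted p 0.05 (0 in limma, 0 also at unadjusted p 0.05). Cytosolic ribosomal protein genes, another set of subunits of 1 complex, were chosen after their values were seen. Of 35 tested, 8 (22.9%) were above 0, against 45.4% of all probe sets, and their median was -0.02. For 10 of them all single-housed arrays lay below all group-housed arrays, against 7.95% of all probe sets. Values mostly on one side were thus not particular to the proteasome. No test was made between these sets and the proteasome subunits.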

How the data were processed

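Per the labels, biotin-labelled total RNA extracted with Trizol was hybridised to 1-colour Affymetrix arrays. The deposited values were linear intensities of probe sets. No source used here states how the authors summarised, background-corrected or scaled them. Array medians ran from 24.2 to 31.6. The number of arrays, 3 per group, limits the precision.

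Of 18952 probe sets 183 controls were left out. The platform annotation gave 1 gene for 13647 probe sets, several for 402 and none for 4720. All 40 proteasome symbols matched the gene table of the RefSeq release by gene ID. Values were taken as log2(intensity + 16), quantile normalized, and the lowest 30% by mean were left out (cutoff 4.69). The housing groups were tested in R 4.3.3 with lmFit and trended eBayes of limma 3.58.1, 2-sided, at adjusted p 0.05, and the code was tested on simulated data. Probe sets ending in _s_at, 5 of the 40 (Prosbeta5, Prosbeta7, Rpn6, Rpn13 and Rpn12R), can bind transcripts of more than 1 gene. In other lists a gene is represented by its brightest probe set. Marker sums are of normalized intensities.

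The members and lists were chosen with earlier results of these data known. Values are given array by array for up to 4 genes per subcomplex with the smallest p, and for members a sentence turns on. Other lists name up to 4 genes by p, and Pomp, REG and Prosbeta2 were named for their roles. Alternatives changed the scaling (as deposited, median centring), the pseudocount (1, 64), the filter (none, 50%), eBayes (no trend, robust with statmod 1.5.0) and the design (array weights, replicate block, each array left out). Promoter and protein sequences were not used here.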

Additional observations from a re-analysis of the deposited data

How the results depend on the processing

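No proteasome gene passed adjusted p 0.05 in limma in any of the 16 alternatives, and the smallest adjusted p of a main subunit was 0.237. Of 490 values of single genes under alternatives 479 kept their direction. The filter, eBayes and block alternatives leave every difference unchanged, so values under these could not turn. The sign turned without group-housed replicate 3 for Prosalpha2, Prosalpha7, Prosbeta4, Prosbeta5, Prosbeta6, Prosbeta7 and Rpt4, which ran with 1 array left out from -0.045 to 0.092, -0.024 to 0.126, -0.008 to 0.131, -0.016 to 0.137, -0.033 to 0.125, -0.013 to 0.107 and -0.055 to 0.128. Rpn12 turned with median centring (0.007), the deposited scaling (0.094) and, leaving out 1 array, without single-housed replicate 3 (-0.137 to 0.006), and Rpn13R without group-housed replicate 2 (-0.068 to 0.203). With the deposited scaling the median was 0.282 for the main subunits, 0.247 for the core and 0.299 for the regulatory particle. With 1 array left out these medians ran from 0.021 to 0.150, from -0.004 to 0.134 and from 0.105 to 0.190. Over all probe sets 2 were called. The count was 78 with the deposited scaling, 11 with median centring, 5 with array weights, 1 with a pseudocount of 64, without a filter or with the filter at 50%, and 0 without the trend (limma, 985 at unadjusted p 0.05). It ran from 0 to 47 with 1 array left out. The replicate number as a block gave 32 calls over all probe sets and 0 of proteasome genes. The median of 0.110 was unchanged, because a block balanced between the groups leaves every difference the same. Same-numbered arrays of the 2 groups deviated from their group means with correlations of 0.032, 0.114 and 0.329, and not every array correlated best with its own number, so the numbers were not taken as pairs. With array weights the core median was 0.045. The causes of these changes were not tested. Probe sets near the cutoff, such as the paralogs, are limited by signal close to background.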
